A study of Mus musculus with 10 samples.

Results

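The surface of the hair cell bundle was followed through 6 genes: Gpr98, Whrn, Clrn1, Ptprq, Strc and Grxcr1. They were taken by symbol from the 34590 genes listed in the deposited counts, where the ankle link receptor stands under Gpr98 rather than Adgrv1 and whirlin under Whrn rather than Dfnb31. All 6 passed the filter on low counts, which kept 16891 genes. Bulk RNA-seq had been made from handpicked mouse cochlear cells of 5 types, with 2 libraries of each.

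A stereocilium is an actin-filled protrusion on top of a hair cell (HC), and its membrane carries links to its neighbours. Ankle links join the tapered bases of growing stereocilia and are built around the very large adhesion receptor that Gpr98 encodes, together with the scaffold proteins whirlin (Whrn) and Pdzd7. Above them, shaft connectors need the receptor phosphatase Ptprq, and stereocilin (Strc) forms the top connectors of outer hair cells (OHCs) and fastens their tallest stereocilia to the tectorial membrane. Clarin-1 (Clrn1) is a small membrane protein of the bundle and synapse, and Grxcr1 is a glutaredoxin-like protein needed for stereocilia of normal width. Loss of each of these genes impairs hearing, and Clrn1, Gpr98 and Whrn are Usher syndrome genes.

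The supporting cells (SCs), from mice aged P26 and P27, carried Fgfr3iCreER and a Cre-dependent tdTomato reporter in Rosa26, which marks Deiters' and pillar cells after tamoxifen. The converted HCs (cHCs, P33) carried both of these, an Atoh1-HA transgene switched on by the same Cre, and alpha9 AChR-EGFP, a reporter of the HC gene Chrna9. They were picked as double-fluorescent cells, so SCs that had received the transgene without gaining the HC reporter are not among them. Tamoxifen was given to both groups as juveniles. The mature OHCs, called OHCs (P22) here, came from prestin-YFP knock-in mice, and the ages read from their names are 21 and 22 days. The supplement of the study gives ages 1 day later for these cells, and the names P21 and P22 library used here follow the labels. The OHCs (P7) are labelled with the same knock-in, whereas the supplement of the study gives PrestinCreERT2 with tdTomato and neonatal tamoxifen. The inner hair cells (IHCs), at P74 and P75, came from Pval-Cre mice with the tdTomato reporter, and this Cre also marks OHCs weakly. Cells were pooled within a library, and the study calls its libraries biological duplicates without saying which animals gave them, so the p values measure the spread between these libraries only. The libraries of SCs, cHCs and OHCs (P7) are numbered in 1 series and those of OHCs (P22) and IHCs in another. Differences between cell types of the 2 series cannot be told apart from differences between the series.

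In 4 of the 10 sample records, the attached file held the counts of another library, and each file was therefore assigned to the library whose CPM column in the study's supplement was a constant multiple of its counts. Read counts on genes ranged from 15016129 to 40518766 per library, and 3 counts corresponded to between 0.074 and 0.2 CPM before scaling. CPM are gene counts divided by the library total, here after scaling the total with edgeR's TMM factors, so that libraries of different depth can be compared. Atoh1, counted from the transgene and the endogenous gene together, stood at 0.267 and 1.91 CPM in the SC libraries and reached 364 and 1812 CPM in those of cHCs, so the target of the conversion was high where the labels place it. The 7 HC markers summed to between 4490 and 8969 CPM in the 8 HC libraries, against 360 and 362 CPM in SCs. Myo6 and Myo7a, with means of 261 and 97.3 CPM, made up most of the sum in SCs. Otof had a mean of 4613 CPM in IHCs and 220 CPM in cHCs. Chrna9 and Chrna10 went the other way, with 12.5 and 9.92 CPM in IHCs against 659 and 153.5 CPM in cHCs. The 8 SC markers summed to 1190 and 1963 CPM in SCs, between 824 and 1077 CPM in cHCs, between 721 and 875 CPM in IHCs, between 89.5 and 299 CPM in OHCs (P7) and between 4.89 and 16.4 CPM in OHCs (P22). The sums hide opposite differences. Fgfr3, a receptor of pillar and Deiters' cells after which the Cre line is named, had means of 239 CPM in SCs and 445 CPM in cHCs. The transcription factor gene Prox1 had 34.2 and 270 CPM. These 2 markers, set apart after their values were seen, summed to 182 and 365 CPM in SCs and to 705 and 725 CPM in cHCs. The 6 others, Sox2, Sox9, Gjb2, Gjb6, Hes1 and Jag1, summed to 1008 and 1597 CPM in SCs but to 99.3 and 372 CPM in cHCs. In IHCs the gap junction gene Gjb2, with a mean of 540 CPM, made up most of the sum. In bulk samples fewer cells of a type and less RNA per cell cannot be told apart. The labelled HC subtypes carried their own markers. OHCs were picked by a label of prestin, the product of Slc26a5, and cHCs by a Chrna9 reporter. Slc26a5 and Chrna9 are therefore no independent check in those cells. Slc17a8, the IHC glutamate transporter, lay between 1763 and 1907 CPM in IHCs and at most 75.5 CPM elsewhere. The OHC markers Slc26a5 and Ocm together reached between 11350 and 12030 CPM in OHCs (P22) and between 4255 and 4461 CPM in OHCs (P7). They summed to between 69.5 and 241 CPM in IHCs, and between 25.3 and 103 CPM in cHCs. In cHC libraries 13 and 16, Slc26a5 was at 97.6 and 23.4 CPM. Ocm was at 4.98 and 1.91 CPM there, against 2.71 and 3.16 CPM in SC libraries 12 and 11.

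In the mm9 annotation (GENCODE M1), all 6 are protein-coding genes. Gpr98 lies at chr13:81234067-81772153 on the minus strand and spans 538087 bases with 24.8 kb of exons. Whrn is at chr4:63075944-63157025 (minus strand, 7.34 kb of exons), Clrn1 at chr3:58647950-58689262 (minus strand, 3.86 kb), Ptprq at chr10:106954416-107157083 (minus strand, 7.16 kb), Strc at chr2:121189464-121212904 (minus strand, 6.23 kb) and Grxcr1 at chr5:68423074-68557637 (plus strand, 1.07 kb). No other coding transcript matched any of them over at least 100 bases at 90% identity. Only Strc shared exon sequence with another gene, 10 bases with Ckmt1 on the other strand, which is 0.161% of its exons.

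Atoh1 is a basic helix-loop-helix factor, a class that binds the E-box CANNTG, so the promoters of genes that stand high in Atoh1-converted cells are shown for their letters. RefSeq sequences of 250 bases before to 50 bases after the start (GRCm38.p6) were at hand for 5 of the 6 genes, under Adgrv1 for Gpr98, with Ptprq not among them. The motif CAGNTG, searched on both strands and thus also as CANCTG, was present in 3 of these 5, those of Gpr98, Clrn1 and Strc, and in 51.4% of all 32851 promoters. The general E-box CANNTG, of which it is a subset, is found in 72.3% of all promoters. CAGCTG, a form of CAGNTG found in 16.3% of all promoters, was in none of the 5 windows. The 3 promoters with CAGNTG are printed 5′ to 3′ on the strand of the gene, minus for each, with the motif in capitals: that of Gpr98 at chr13:81633095-81633394, of Clrn1 at chr3:58885163-58885462 and of Strc at chr2:121380891-121381190.
Gpr98: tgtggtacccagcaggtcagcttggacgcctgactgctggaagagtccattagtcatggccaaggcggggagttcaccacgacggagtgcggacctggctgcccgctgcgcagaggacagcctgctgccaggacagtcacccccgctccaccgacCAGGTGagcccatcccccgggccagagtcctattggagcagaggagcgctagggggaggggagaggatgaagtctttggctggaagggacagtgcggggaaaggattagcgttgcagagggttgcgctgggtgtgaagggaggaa
Clrn1: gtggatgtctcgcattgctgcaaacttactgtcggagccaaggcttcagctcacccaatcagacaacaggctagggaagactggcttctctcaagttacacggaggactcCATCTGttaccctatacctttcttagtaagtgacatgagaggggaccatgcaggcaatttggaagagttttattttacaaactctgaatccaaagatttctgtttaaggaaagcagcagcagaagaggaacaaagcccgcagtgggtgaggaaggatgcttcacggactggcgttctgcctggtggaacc
Strc: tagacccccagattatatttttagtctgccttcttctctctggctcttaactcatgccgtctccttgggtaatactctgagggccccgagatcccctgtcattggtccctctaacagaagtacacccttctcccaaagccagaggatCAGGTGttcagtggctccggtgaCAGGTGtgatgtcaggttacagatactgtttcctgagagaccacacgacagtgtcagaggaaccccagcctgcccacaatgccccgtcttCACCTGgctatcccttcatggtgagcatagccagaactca
The motif stood 95 bases before the start in Gpr98 and 140 bases before it in Clrn1. In Strc it stood 103 and 80 bases before the start and once more 10 bases after it. The Grxcr1 window held 3 CANNTG words and the Whrn window none, and neither held CAGNTG. A match describes the letters of these windows and is not a measured binding site.

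The first comparison asked which of the bundle surface genes stood higher in cHCs than in SCs. These groups differ in age, in the transgene and in picking by the HC reporter, which cannot be told apart here. All 6 rose in cHCs (P33) over SCs (P26), by 6.2 to 9.11 on the log2 scale, with a median of 8.25 against 0.03 over all genes. Of all tested genes, 1.75% were called higher in this comparison (edgeR's quasi-likelihood test, false discovery rate, FDR, by Benjamini-Hochberg adjustment under 0.05). In every member the lower cHC library was above the higher SC library. SC levels of Whrn, Clrn1 and Grxcr1 were close to the counting limit: the 2 SC libraries together held 6, 7 and 8 counts of them. Strc had 36 counts there, Gpr98 39 and Ptprq 191.

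**Figure D1:**
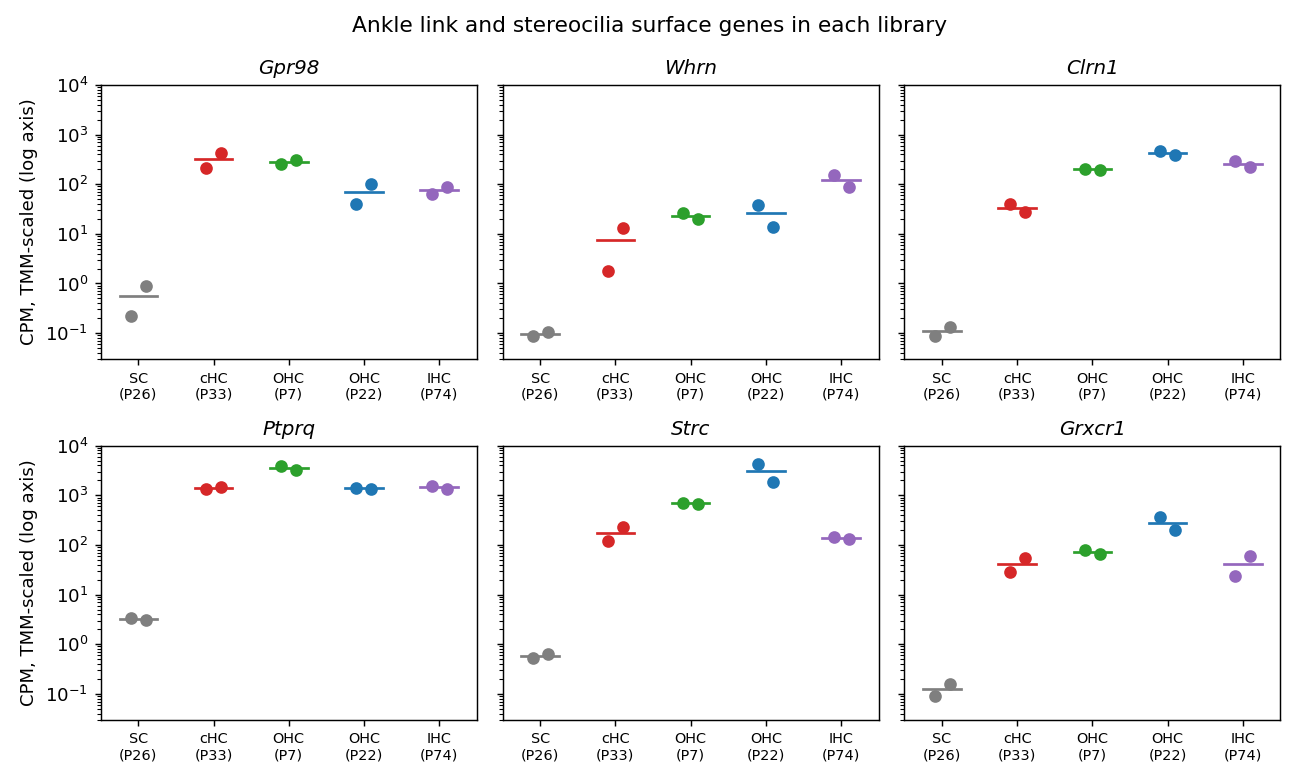
TMM-scaled CPM (log axis) of the 6 genes in each of the 10 libraries, grouped by cell type; points are libraries and bars their mean. SCs (P26) lie between 0.0888 and 3.38 CPM in every panel, below all 8 HC libraries of the same gene, and the order of the 4 HC types differs from gene to gene.

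Gpr98, the core of the ankle link, was nearly absent from SC libraries 12 and 11 (0.222 and 0.903 CPM) and reached 212 and 431 CPM in cHC libraries 13 and 16. OHCs (P7) had 255 and 301 CPM, OHCs (P22) had 39.1 and 100.3 CPM, and IHCs (P74) had 64.1 and 85.8 CPM. The cHC and neonatal OHC libraries overlapped, and the 4 mature HC libraries all lay below them. The gene rose in cHCs by 9.11 ± 1.0 on the log2 scale (SE) over SCs, with an FDR of 6.85e-04 by edgeR. Between OHCs (P22) and cHCs the log2 difference was -2.21 ± 0.73, with an FDR of 0.142 in edgeR, 0.0313 in DESeq2 and 0.0257 without the low count filter, so that the lower level in mature OHCs passed in some analyses and not in the main one. IHCs stood at -2.10 ± 0.73 against cHCs (FDR 0.291 in edgeR, 0.0481 in limma-voom). The differences of OHCs (P22) and of IHCs from OHCs (P7), -2.00 and -1.89, did not pass.

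Whrn, the scaffold that serves both the ankle links and the stereocilia tip, was the lowest of the 6 in cHCs per kb of exon. Its CPM were 0.0888 and 0.106 in SCs, 1.74 and 13.4 in cHCs, 26.8 and 19.8 in OHCs (P7), 37.8 and 13.9 in OHCs (P22), and 155 and 87.2 in IHCs. The 2 cHC libraries differed 7.67-fold, both lay below every OHC and IHC library, and both IHC libraries lay above all others. The rise in cHCs over SCs was 6.2 ± 1.32 on the log2 scale with an FDR of 0.0396 in edgeR. This call depended on single libraries: the FDR was 0.178 and 0.167 without SC library 12 or 11, 0.215 without cHC library 16 and 0.0612 without the P74 library of IHCs, and it was 0.112 in limma-voom. Summed counts put the ratio of cHCs to SCs at 90.6, with an exact 95% interval of 41.4 to 248 that covers counting error only. IHCs stood 4.0 ± 1.15 above cHCs on the log2 scale, which did not pass in edgeR (FDR 0.177) and did in DESeq2 (FDR 0.00337).

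Clrn1 followed another order. SCs held 0.0888 and 0.133 CPM, cHCs 39.7 and 27.8 CPM, OHCs (P7) 207 and 195 CPM, OHCs (P22) 463 and 393 CPM, and IHCs 296 and 218 CPM. No 2 cell types overlapped, and cHCs stood apart from all 6 libraries of native HCs. Clrn1 rose in cHCs over SCs by 8.16 ± 0.68 on the log2 scale (FDR 8.99e-05, edgeR), and the ratio of summed counts was 277 with an exact 95% counting interval of 134 to 690.

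Ptprq, the shaft connector protein, was the highest of the 6 in cHCs per kb of exon. The SC libraries held 3.38 and 3.05 CPM, the cHC libraries 1362 and 1457 CPM, the OHC (P7) libraries 3849 and 3289 CPM, the OHC (P22) libraries 1422 and 1364 CPM, and the IHC libraries 1534 and 1366 CPM. The cHCs, mature OHCs and IHCs overlapped, and both neonatal OHC libraries lay above them. The rise from SCs to cHCs was 8.77 ± 0.45 on the log2 scale. The difference between OHCs (P22) and cHCs was -0.02, with a 95% interval of -0.73 to 0.69, and that between IHCs and cHCs was 0.04, with an interval of -0.67 to 0.75; both differences changed sign under other scalings, as did that of 0.06 between IHCs and OHCs (P22). OHCs (P7) stood 1.34 ± 0.33 above cHCs, with an FDR of 0.154 in edgeR and 0.00152 in limma-voom.

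Strc, the top connector protein, had 0.533 and 0.638 CPM in SCs, 119 and 228 CPM in cHCs, 700 and 674 CPM in OHCs (P7), 4185 and 1878 CPM in OHCs (P22), and 143 and 134 CPM in IHCs. The cHC range enclosed both IHC libraries, and OHCs of either age lay above both types. Strc rose in cHCs over SCs by 8.20 ± 0.65 on the log2 scale (FDR 8.22e-05 in edgeR, 0.111 in limma-voom). The widest contrast within the HCs was between IHCs and OHCs (P22), described with the other HC comparisons.

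Grxcr1, which acts on stereocilia width, went from 0.0888 and 0.159 CPM among SCs to 28.5 and 54.8 CPM among cHCs. It had 77.7 and 66.3 CPM in OHCs (P7), 360 and 201 CPM in OHCs (P22), and 23.8 and 58.9 CPM in IHCs. The cHC and IHC libraries overlapped and both OHC types lay above them. The rise over SCs was 8.30 ± 0.96 on the log2 scale in cHCs (FDR 9.19e-04, edgeR), and summed counts gave a ratio of 338 with an exact 95% counting interval of 171 to 784.

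All 6 genes were also higher in each native HC type than in SCs. The share of all tested genes called higher by edgeR was 2.56% for OHCs (P7), 4.01% for OHCs (P22) and 2.23% for IHCs. The log2 differences of the members ranged from 7.82 to 10.73 in OHCs (P7), from 6.91 to 12.32 in OHCs (P22) and from 7.01 to 11.08 in IHCs, with medians of 9.60, 9.90 and 8.55 against 0.00 for all genes in each. Of the 6, only Whrn lost a call here on leaving out 1 library, in OHCs (P7), at an FDR of 0.0584 without SC library 12 and 0.0571 without SC library 11. Whrn was also not called when only the 2 types compared were fitted, at an FDR of 0.0696 in OHCs (P7) and 0.0673 in OHCs (P22). Strc in IHCs did not pass in limma-voom (FDR 0.123). These comparisons and that of cHCs share the 2 SC libraries. In the same fits of 2 types, 3 of the 6 members kept a call in cHCs over SCs, with FDR of 0.228 for Whrn, 0.0644 for Clrn1 and 0.0516 for Grxcr1. If each file was instead given to the record it is attached to, no member was called in any comparison and no gene of the whole table was called.

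The next comparisons asked where cHCs stood against native HCs. Against OHCs (P7), the youngest native type, none of the 6 was called by edgeR, where 0.343% of all genes were called in either direction. At an unadjusted p under 0.05 the count was 3, DESeq2 called 1 and limma-voom 2. Of all genes, DESeq2 called 1123 to 4156 per comparison and limma-voom 110 to 1897. The nearest to the threshold was Clrn1, with an FDR of 0.0692 in edgeR, a log2 difference of 2.58 ± 0.50 and an interval of 1.47 to 3.69. It passed in DESeq2 (FDR 0.00121), in limma-voom (FDR 0.0341) and when either SC library was left out (FDR 0.0426 without library 12 and 0.0416 without library 11). Gpr98 differed least, by -0.21 with an interval of -1.75 to 1.33, and its sign turned without cHC library 16, where the difference was 0.39.

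Against OHCs (P22), 2 of the 6 genes were higher in the mature OHCs, Clrn1 and Strc, where 1.16% of all genes were called higher. Clrn1 was higher by 3.67 ± 0.53 on the log2 scale, a 12.7-fold difference (FDR 0.00594, edgeR). Strc was higher by 4.13 ± 0.53, a 17.5-fold difference (FDR 0.00463, edgeR). Both calls held without each of the 10 libraries in turn. Grxcr1 stood 2.75 ± 0.72 higher, with an FDR of 0.0675 in edgeR, 0.00275 in DESeq2 and 0.0335 in limma-voom. Over the 6 genes the median log2 difference was 2.26, beside -0.19 over all genes, and Gpr98 and Ptprq were the only members below 0. SC markers differed between these groups too. Fgfr3 and Prox1 summed to 705 and 725 CPM in cHCs against at most 5.64 CPM in OHCs (P22), the 6 other markers to 99.3 and 372 CPM against at most 10.8 CPM, and their part in the differences was not tested.

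Against IHCs, Clrn1 was higher in the native cells by 2.93 ± 0.51 on the log2 scale, a 7.62-fold difference (FDR 0.0221, edgeR), and no other member was called. This is 1 of 6, where 0.42% of all genes were called higher. The call was lost without any 1 of the 4 libraries compared, at an FDR of 0.095 without cHC library 13, 0.212 without cHC library 16, 0.145 without the P74 and 0.0592 without the P75 library of IHCs, and also when only these 2 cell types were fitted, again at 0.0592. The difference itself stayed between 2.69 and 3.21. Strc, at -0.33 with an interval of -1.36 to 0.71, and Grxcr1, at -0.01 with an interval of -1.50 to 1.48, lay near 0, and each changed sign without cHC library 16. The 8 SC markers summed to between 721 and 875 CPM in IHCs and between 824 and 1077 CPM in cHCs. Their part in the differences between these 2 types was not tested.

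**Figure D2:**
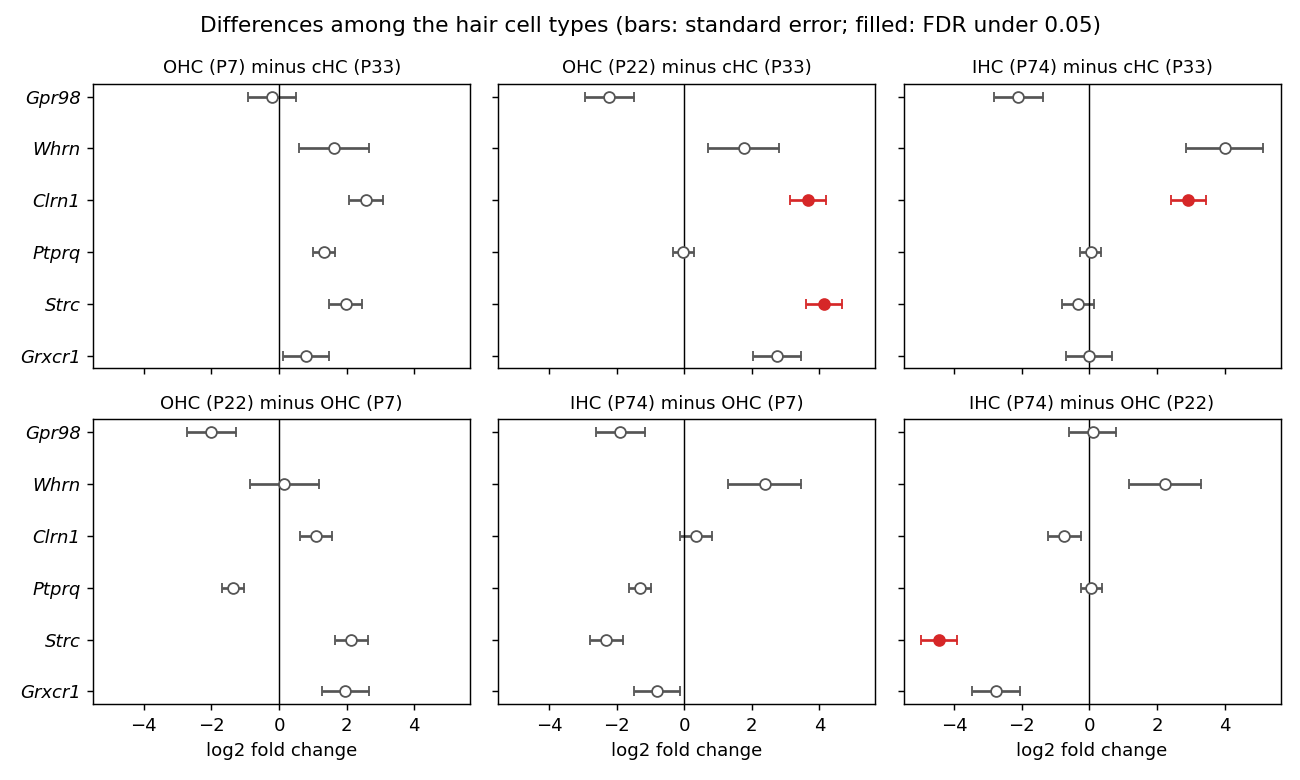
Log2 fold changes (horizontal axis) of the 6 genes in the 6 comparisons among HC types, each panel giving the first named type minus the second; points are edgeR estimates, bars 1 standard error, and filled red points have an FDR under 0.05. The 4 filled points are Clrn1 and Strc in OHCs (P22) minus cHCs, Clrn1 in IHCs minus cHCs, and Strc in IHCs minus OHCs (P22).

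Native HCs differed among themselves most in Strc. In IHCs the gene fell by 4.45 ± 0.54 on the log2 scale relative to OHCs (P22) (FDR 0.00413, edgeR), and it was the 1 member called in that comparison, where 0.485% of all genes were called lower. Leaving out single libraries kept the difference between -4.92 and -3.79 and the FDR at most 0.0139. The OHC marker Ocm was counted in the IHC libraries at 239 and 68.6 CPM, while Slc26a5 was at 1.31 and 0.859 CPM there. Strc was at 143 and 134 CPM in the same libraries. The 8 SC markers summed to between 721 and 875 CPM in IHCs and to at most 16.4 CPM in OHCs (P22). The part of RNA from OHCs or SCs in the Strc level of IHCs was not tested. Grxcr1 stood at -2.76 ± 0.72 in the same comparison, with an FDR of 0.100 in edgeR and 0.00287 in DESeq2. Whrn went the other way, 2.23 ± 1.06 higher in IHCs (FDR 0.347, edgeR).

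Between the OHC ages, none of the 6 was called by edgeR, where 0.551% of all genes were called, and 5 had an unadjusted p under 0.05. DESeq2 and limma-voom, with the counts over all genes given above, called 1 each. Strc stood 2.14 ± 0.49 higher at P22, with an FDR of 0.0931 in edgeR and 0.00908 in DESeq2, and it passed without cHC library 13 (FDR 0.0391), cHC library 16 (FDR 0.0440) or the P22 library of mature OHCs (FDR 0.0260). Ptprq stood 1.36 ± 0.33 lower at P22, with an FDR of 0.106 in edgeR and 0.00561 in limma-voom. Between IHCs and OHCs (P7), none was called by edgeR either, where 0.379% of all genes were called, while 4 had an unadjusted p under 0.05 and DESeq2 and limma-voom called 1 each. Strc was again nearest, at -2.31 ± 0.49 (FDR 0.0845, edgeR). It passed in DESeq2 (FDR 0.0134), when only these 2 types were fitted (FDR 0.0280) and without any 1 library of the SCs, cHCs or OHCs (P22), with FDR from 0.0287 to 0.0439.

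The order of the cell types thus differed by gene. For Gpr98 it ran from cHCs over OHCs (P7) and IHCs to OHCs (P22), for Whrn from IHCs over both OHC ages to cHCs, and for Clrn1 from OHCs (P22) over IHCs and OHCs (P7) to cHCs. Ptprq was highest in OHCs (P7), and Strc and Grxcr1 ran from OHCs (P22) over OHCs (P7) and cHCs to IHCs. Between neighbours in these orders, the step from the lowest HC type to SCs was the only one called by edgeR. Libraries of 1 type overlapped with those of the next for Gpr98 (cHCs with OHCs at P7, and IHCs with OHCs at P22), Whrn (both OHC ages), Ptprq (IHCs, cHCs and OHCs at P22), Strc and Grxcr1 (cHCs with IHCs).

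Levels of different genes were compared per kb of exon. In cHCs, Ptprq was highest, at 197 ± 9.38 CPM per kb (SD, n = 2), followed by Grxcr1 at 38.9 ± 17.4, Strc at 27.9 ± 12.4, Gpr98 at 13 ± 6.23, Clrn1 at 8.74 ± 2.18 and Whrn at 1.03 ± 1.12. Ranges in cHCs overlapped between Grxcr1 and Strc, and between Gpr98 and Clrn1. In OHCs (P22), Strc had the highest mean at 487 ± 262 CPM per kb. It stood above Grxcr1 at 262 ± 105 and Ptprq at 195 ± 5.70. The range of Grxcr1 overlapped that of Strc and enclosed that of Ptprq. Clrn1 followed at 111 ± 13 CPM per kb. Whrn and Gpr98 came last at 3.52 ± 2.30 and 2.81 ± 1.75, with overlapping ranges. In OHCs (P7) and IHCs, Ptprq led at 498 ± 55.3 and 202 ± 16.6 CPM per kb. Clrn1, at 66.6 ± 14.2 CPM per kb, came next in IHCs.

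**Figure D3:**
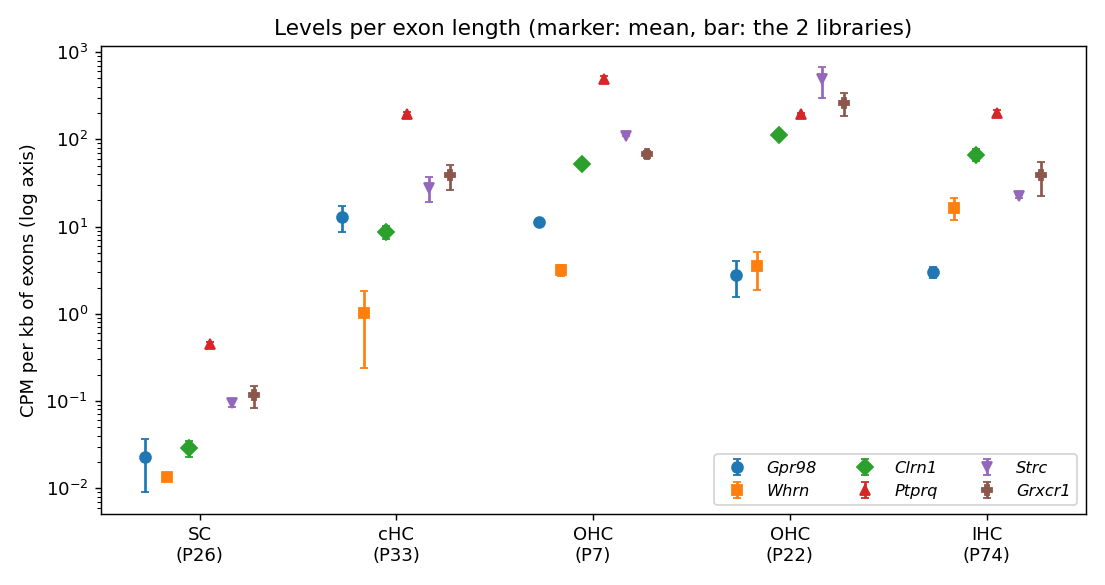
CPM per kb of merged exons (log axis) of the 6 genes in the 5 cell types; markers are means and bars run from the lower to the higher of the 2 libraries. Ptprq leads in SCs, cHCs, OHCs (P7) and IHCs, while Strc has the highest mean in OHCs (P22), and Gpr98 and Whrn are lowest in each native HC type.

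Duplicates of OHCs (P22) differed more than those of OHCs (P7) for 5 of the 6 genes. The ratio of the higher to the lower library was 2.23 for Strc, 1.79 for Grxcr1 and 2.72 for Whrn, with the P21 library higher, and 2.57 for Gpr98, with the P22 library higher. In OHCs (P7) these ratios lay between 1.04 and 1.36. For the 689 genes with at least 10000 bases of exon, Gpr98 among them, the P22 library was compared with the P21 library. Their median log2 difference was -0.35, against 0.11 over all genes. The part of exon length in the duplicate differences was not tested.

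Other genes of the ankle links, the stereocilia base and taper and the tip, with relatives and other surface proteins, were followed as 4 lists. Their 18 genes are called partners here for short, and 17 were tested, with Clrn3 at 0 counts in all 10 libraries. In cHCs over SCs, 5 of the 17 rose by edgeR, beside 1.75% of all genes: the ankle link motor Myo7a, the base and taper genes Myo6 and Grxcr2, the tip motor Myo15 and the surface protein Loxhd1. In OHCs (P7) also 5 rose, with Tub in place of Myo7a, beside 2.56% of all genes. In OHCs (P22) 7 rose, adding Clic5 to all of these, beside 4.01%, and in IHCs the same 5 as in cHCs, beside 2.23%. Among HC types, edgeR called 1 of the 17 as higher in OHCs (P22) than in cHCs, beside 1.16% of all genes. It called none in the other 5 comparisons, beside 58 to 247 of all 16891 genes in either direction. There, 3 to 7 of the 17 had an unadjusted p under 0.05, DESeq2 called 1 to 5 and limma-voom 1 or 2. Over the 10 comparisons, DESeq2 called 1123 to 4156 of all genes and limma-voom 110 to 1897. Myo6 and Myo7a are also HC markers. The calls of Myo7a rested on single libraries. In cHCs they were lost without SC library 12 or 11, cHC library 16, OHC (P7) library 15 or the P75 library of IHCs, with FDR from 0.0507 to 0.200, in OHCs (P22) without SC library 12 or 11 or the P22 library, with FDR from 0.0511 to 0.111, and in IHCs without SC library 12 (FDR 0.0515). Clic5 in OHCs (P22) was lost without SC library 11 or either mature OHC library (FDR from 0.0597 to 0.168). Tub was lost without SC library 12 in OHCs (P7) and OHCs (P22) (FDR 0.138 and 0.0572), and without SC library 11 in OHCs (P7) (FDR 0.107).

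**Figure D4:**
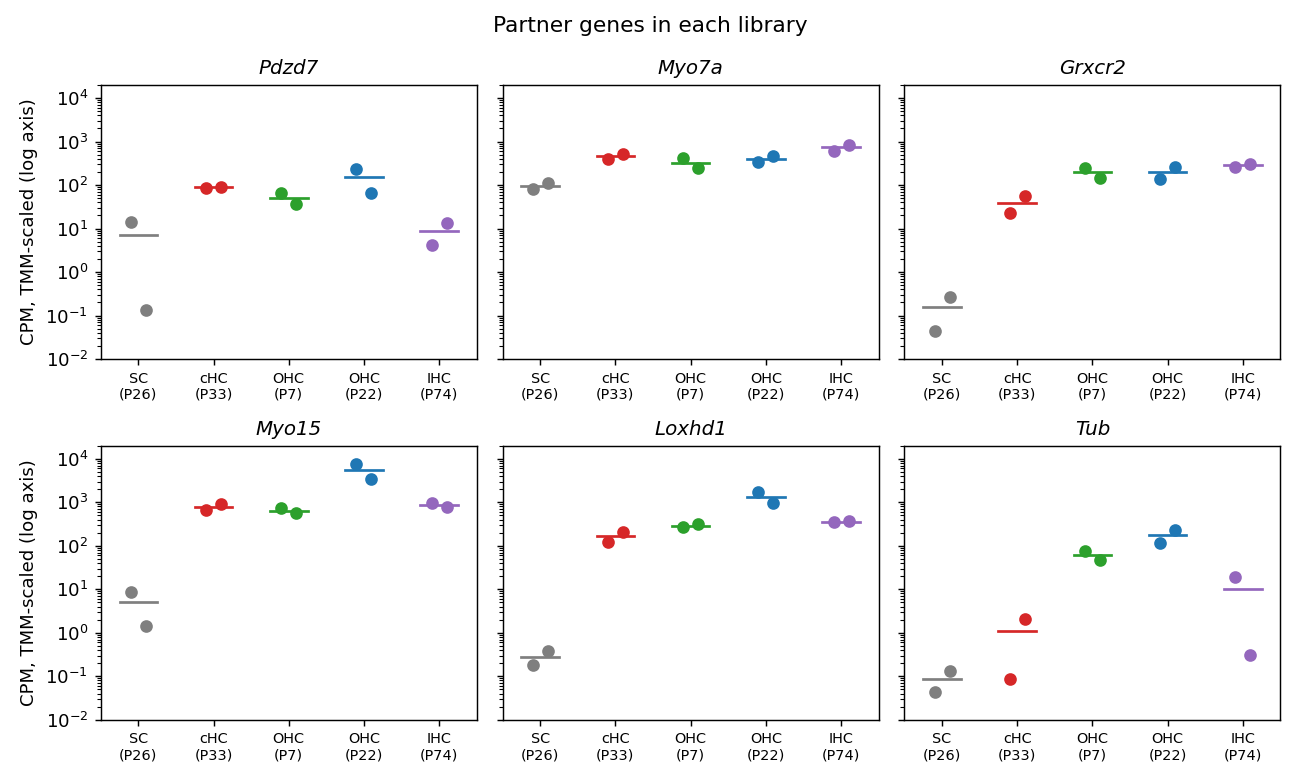
TMM-scaled CPM (log axis) of 6 partner genes in each library, with bars at the mean. Pdzd7 lies between 4.28 and 13.5 CPM in IHCs, below all other HC libraries, Myo15 and Loxhd1 are highest in OHCs (P22), and Tub has between 0.0851 and 2.11 CPM in cHCs.

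Pdzd7, another ankle link scaffold, had 13.9 and 0.133 CPM in SCs, 86.8 and 92.2 CPM in cHCs, 65.7 and 37.5 CPM in OHCs (P7), 239 and 64.8 CPM in OHCs (P22), and 4.28 and 13.5 CPM in IHCs. The SC libraries differed by 2 orders of magnitude, and Pdzd7 passed in none of the 10 comparisons in edgeR, in 2 in DESeq2 and in 1 in limma-voom. Vezt, which encodes vezatin, passed in none in edgeR or limma-voom and in 1 in DESeq2, and was present in SCs at 42.5 and 137 CPM. Grxcr2, a relative of Grxcr1, rose in cHCs by 7.84 ± 0.96 over SCs on the log2 scale (FDR 0.00138, edgeR), from 0.0444 and 0.266 CPM to 23.4 and 54.6 CPM. It had 245 and 145 CPM in OHCs (P7), 137 and 254 CPM in OHCs (P22), and 264 and 311 CPM in IHCs, all above cHCs. Whereas Grxcr1 was lower in IHCs than in mature OHCs without overlap, Grxcr2 was higher there without overlap. Neither difference passed in edgeR.

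Loxhd1, a protein of the stereocilia membrane, was the 1 partner called between cHCs and OHCs (P22). It was higher in the mature OHCs by 2.99 ± 0.53 on the log2 scale (FDR 0.0134, edgeR), with 122 and 211 CPM in cHCs and 1693 and 950 CPM in OHCs (P22). The call was lost without cHC library 13 (FDR 0.0718), without the P21 library of OHCs (FDR 0.0590) and when only these 2 types were fitted (FDR 0.0616). Myo15, the motor that carries whirlin to the tip, rose in cHCs over SCs by 7.30 ± 0.87 (FDR 0.00119 in edgeR, 0.133 in limma-voom) and had 7601 and 3470 CPM in OHCs (P22) against 670 and 929 CPM in cHCs. Eps8, Gpsm2 and Gnai3, the other tip partners of whirlin, and Clrn2 and Otoa passed in no comparison in edgeR. Of the 10 comparisons, DESeq2 called Gpsm2 in 2, Gnai3 in 3, Clrn2 in 4 and Otoa in 6. In limma-voom these counts were 1, 4, 2 and 4, and neither tool called Eps8 in any. Over all genes, DESeq2 called 1123 to 4156 per comparison, limma-voom 110 to 1897 and edgeR 58 to 1354. Tub, the tubby gene, had 0.0851 and 2.11 CPM in cHCs against 77.1 and 47.5 CPM in OHCs (P7) and 115 and 233 CPM in OHCs (P22), and the cHC libraries lay below all 4 OHC libraries. The cHCs and OHCs did not pass as different in Tub in edgeR (FDR 0.282 for OHCs (P7) and 0.0713 for OHCs (P22)), while DESeq2 called both differences and limma-voom that for OHCs (P22).

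By Pearson's r of log2 CPM over the 10 libraries, the 3 tested genes most like each member were determined as a description, and those reported are named here. They share libraries and the step from SCs to HCs, which carries much of each r. Most like Gpr98 were Fam70b (r = 0.985), Fnip2 and Gm17322, and most like Whrn were Zfp410 (r = 0.982), Ppfia3 and Synrg. Clrn1 was closest to Ap3b2 (r = 0.994), Snap91 and Dfnb59, and Ptprq to Pak3 (r = 0.996), Pou4f3 and Phtf2. Strc was closest to Grxcr1 (r = 0.988) and Tmem191c, and Grxcr1 to Col20a1 (r = 0.990), Tmem191c and Dner. Over the 8 HC libraries alone, r between members ranged from -0.741 for Gpr98 and Clrn1 to 0.938 for Strc and Grxcr1, with cell type and library series shared among these points.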

How the data were processed

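RNA of handpicked cells was amplified by single primer isothermal amplification and sequenced. The authors trimmed reads with Cutadapt, mapped them to mm9 with STAR and BWA, and deposited raw HTSeq counts per gene for 10 libraries, without normalization. Reads not assigned to a gene (33.7% to 62.6%) were left out. HTSeq's strand setting is not given in the sources used here. Files were assigned to libraries through the CPM columns of the supplement (coefficient of variation at most 0.000138% for the best file and at least 170.4% for the next, over genes with at least 10 counts), and 4 of 10 differed from the sample records.

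Counts were tested with edgeR 4.0.16 in R 4.3.3: TMM, filterByExpr, and 2-sided quasi-likelihood F-tests in 1 model of 5 cell types, with Benjamini-Hochberg adjustment over 16891 genes and a threshold of 0.05 for the FDR. The common dispersion was 1.12. Standard errors are the log2 fold change divided by the square root of F. Alternatives were DESeq2 1.42.0, limma-voom 3.58.1 (the study's method), other scalings, no filter, fits of only the types compared, files as attached and leaving out each library. Scripts were tested on simulated data. Depth of 15016129 to 40518766 counts put 3 counts at 0.074 to 0.2 CPM. Intervals from counts cover counting error only. An exact permutation test of 2 libraries against 2 cannot go below p = 0.333 and was not used.

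The members, lists and tests were chosen with earlier results of these data known. Named genes were the members, 18 listed partners and the 3 most alike by correlation, and a few genes these rules also name are not reported here. Single-cell and qPCR data were not analysed here. Python 3.11.15 with numpy 2.4.6, pandas 2.3.3, scipy 1.17.1 and matplotlib 3.10.9 was used.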

Additional observations from a re-analysis of the deposited data

How the results depend on the processing

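Of the 60 values for 6 genes in 10 comparisons, 57 kept direction and call with RLE factors, 58 with library totals, 53 in fits of only the types compared, 52 without the filter, 50 in DESeq2 and 50 in limma-voom. The number of the 6 genes called changed as follows, and the cause was not tested. With the files as attached it was 0 in every comparison. In fits of only the types compared it was 3 for cHCs, 5 for OHCs (P7) and 5 for OHCs (P22) over SCs, 0 for IHCs and cHCs, and 1 for IHCs and OHCs (P7). DESeq2 called 1 for OHCs (P7) and cHCs, 4 for OHCs (P22) and cHCs, 2 for IHCs and cHCs, 1 between the OHC ages, 1 for IHCs and OHCs (P7), and 2 for IHCs and OHCs (P22). Without the filter the same 6 counts were 2, 4, 2, 1, 1 and 2, and limma-voom gave 4 for cHCs and 5 for IHCs over SCs, 3 for OHCs (P22) and cHCs, 2 for OHCs (P7) and cHCs, 2 for IHCs and cHCs, 1 between the OHC ages and 1 for IHCs and OHCs (P7). Leaving out single libraries gave 5 to 6 for cHCs and for OHCs (P7) over SCs, 0 to 1 for OHCs (P7) and cHCs, for IHCs and cHCs, between the OHC ages and for IHCs and OHCs (P7), and the main count in the 4 other comparisons.

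Directions turned as follows in log2 units. With the files as attached, Gpr98 was -0.61 in OHCs (P22) and -0.50 in IHCs over SCs and 1.52 in OHCs (P7) minus cHCs, Ptprq -0.41 and Grxcr1 0.09 in IHCs minus cHCs, and Myo6 -0.29 in cHCs over SCs. For Ptprq, DESeq2 and RLE factors gave 0.06 for OHCs (P22) minus cHCs, -0.01 for IHCs minus cHCs and -0.07 for IHCs minus OHCs (P22), and library totals gave -0.09 for IHCs minus cHCs. Whrn between the OHC ages was -0.12 in limma-voom and -0.29 with library totals. Library totals moved the median of all genes by -0.42 for OHCs (P22) minus cHCs and by 0.31 for cHCs over SCs. Leaving out 1 library turned the sign of these differences, with ranges for Gpr98 of -0.63 to 0.39 in OHCs (P7) minus cHCs and -0.45 to 0.94 in IHCs minus OHCs (P22), for Ptprq of -0.13 to 0.02 in OHCs (P22) minus cHCs, -0.05 to 0.12 in IHCs minus cHCs and -0.02 to 0.16 in IHCs minus OHCs (P22), for Strc of -0.72 to 0.21 and for Grxcr1 of -0.81 to 0.53 in IHCs minus cHCs, and for Whrn of -0.73 to 0.69 between the OHC ages. Of the turned differences, those over SCs had passed in the main analysis and the others had not. Over all genes, DESeq2 called 1123 to 4156 per comparison, the analysis without the filter 558 to 2531, limma-voom 110 to 1897, fits of only the types compared 23 to 1032, and edgeR 58 to 1354. No paired analysis was possible because the cell types share no library number. Depth limits SC levels, where 3 of the 6 genes had fewer than 10 counts in all.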
